A study of Homo sapiens with 6 samples.

Results

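The genes described here are 8 histone deacetylases (HDAC1 to HDAC8) and the 2 SIN3 scaffold proteins (SIN3A and SIN3B), which the retinoblastoma protein Rb can draw to DNA. They were chosen by name, through the Ensembl identifier of each row, and are 10 of the 60656 genes in the count table. All 10 were found, and all 10 had enough counts to be tested.

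Histone deacetylases remove acetyl groups from lysines of histones and other proteins, and deacetylated histones pack DNA more tightly and are read less by the transcription machinery. The class I enzymes HDAC1, HDAC2, HDAC3 and HDAC8 are mainly nuclear, and all but HDAC8 work inside large corepressor complexes. Class IIa enzymes (HDAC4, HDAC5 and HDAC7) have little catalytic activity of their own, bind MEF2 transcription factors and move to the cytoplasm when they are phosphorylated and held by 14-3-3 proteins. HDAC6, of class IIb, acts largely on tubulin in the cytoplasm. SIN3A and SIN3B have no enzymatic activity and hold HDAC1 or HDAC2 together with other subunits. In non-proliferating cells, hypophosphorylated Rb occupies E2F transcription factors and can recruit HDAC1, HDAC2 and SIN3-containing complexes to the promoters of cell cycle genes, while CDK4 and CDK6 phosphorylate Rb and release it from E2F.

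The study treated luminal breast cancer models with inhibitors of CDK4 and CDK6 to follow what hypophosphorylated Rb does at genes of the oestrogen response. The libraries used here were made from parental ZR-75-1 cells, an established oestrogen receptor-positive human breast cancer line with RB1 not disrupted, grown in RPMI-1640 with fetal bovine serum. One group of 3 libraries received the vehicle DMSO and the other group of 3 received 500 nM abemaciclib, a CDK4/6 inhibitor, both for 4 days. Cells with RB1 knocked out were left aside, and all values describe a single cell line.

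RNA was measured by 3′ mRNA sequencing, in which a read comes from the polyadenylated end of a transcript, so that a gene's count depends little on its length. The libraries held 3317860 to 4013156 counts, and 3 counts, the limit that a count of 0 allows, equalled 0.748 to 0.904 CPM (a gene's counts after every library is brought to 1 total), for counting error only. All CPM values below were scaled by TMM, a correction for differences in library composition. As a check of the treatment, MKI67, a marker of proliferating cells, stood at 526 ± 31.4 CPM with DMSO and 5.00 ± 2.28 CPM with abemaciclib (SD, n = 3 each), a log2 fold change of -6.71. RB1, which encodes Rb, fell from 56.3 ± 7.32 to 34.0 ± 2.24 CPM, a log2 fold change of -0.73 (SE 0.16, edgeR adjusted P = 0.00104), and KDM5A, an Rb-binding histone demethylase, was at 252 ± 3.69 and 273 ± 17.5 CPM (adjusted P = 0.432). Counts of 7 of 7 luminal epithelial markers were present in every library, summing to 6662 to 7275 CPM with DMSO and 7564 to 8640 CPM with abemaciclib. KRT19 made up the largest share of that sum, and single markers went both ways, with ESR1 higher (log2 fold change 0.82, adjusted P = 2.92e-07) and KRT18 lower (-0.34, adjusted P = 0.00515). Of 6 markers of immune, endothelial, stromal and basal cells, 5 had 0 counts in all 6 libraries, and COL1A1 brought their sum to 10.4 to 15.8 CPM with DMSO and 10.1 to 15.4 CPM with abemaciclib.

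None of the 10 HDAC and SIN3 genes passed the test between abemaciclib and DMSO. Genes were compared by edgeR's quasi-likelihood test at an adjusted P under 0.05 over the 10863 genes with enough counts, and of all these genes 12.5% were called higher and 13.3% lower. Among the 10 genes, edgeR called 0 higher and 0 lower, and DESeq2 also called 0 in each direction. At an unadjusted P under 0.05, 1 of the 10 was higher (HDAC3) and 2 were lower (HDAC2 and SIN3A), where 17.9% of all genes were higher and 18.3% lower. DESeq2 gave 2 genes at an unadjusted P under 0.05, HDAC2 and HDAC3. The median log2 fold change of the 10 was -0.12, with a range of -0.76 to 0.45, and the median over all tested genes was -0.0018.

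The intervals limited how large a change could have been. For 9 of the 10 genes the 95% interval of the log2 fold change lay within 1 of 0, that is, within a doubling and a halving, as it did for 63.2% of all genes tested. HDAC4 was the exception. In 2 of the 10 genes, HDAC3 and HDAC8, the lowest abemaciclib library was above the highest DMSO library, against 19.1% of all genes. The reverse held in 3 of them, HDAC1, HDAC2 and HDAC5, against 20.1% of all genes. With 10 genes, both counts lie within 1 gene of these background shares. Fewer cells of a state and less RNA per cell cannot be told apart in bulk RNA of this kind.

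**Figure D1:**
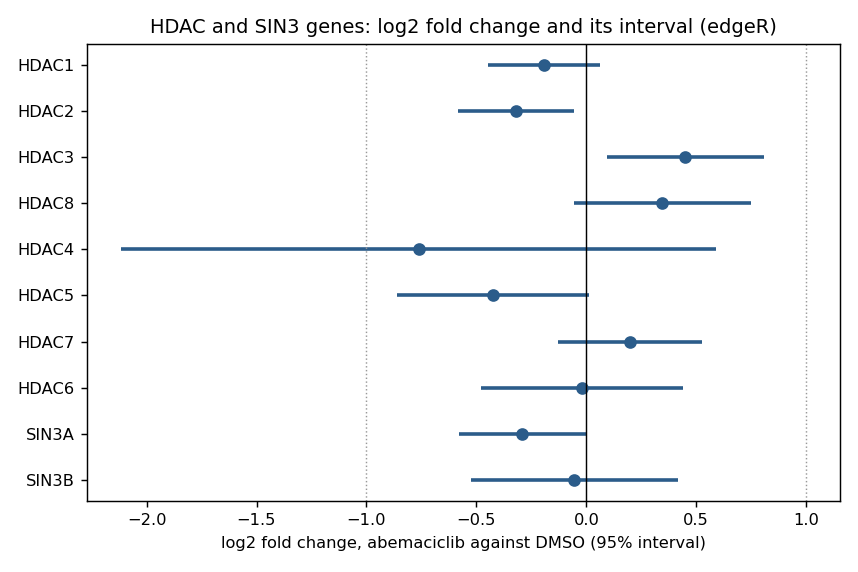
Log2 fold change of each HDAC and SIN3 gene with abemaciclib against DMSO (horizontal axis; points) with its unadjusted 95% interval (lines) from edgeR, 3 libraries a group, with dotted lines at -1 and 1. Intervals were within the dotted lines for 9 genes, and that of HDAC4 ran from -2.11 to 0.59.

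Promoter sequences are shown for 5 genes, because Rb represses cell cycle genes through E2F proteins bound at promoters. The study also describes Rb at sites outside promoters, which were not searched here. The 250 bases before an annotated transcription start were taken from RefSeq (GRCh38.p14), 5′ to 3′ on the gene's strand. Capitals mark a match to 1 of 4 E2F-like words, TTTCCCGC or TTTCGCGC or TTTGCCGC or TTTGGCGC, searched on both strands. The words differ from each other at 1 or 2 bases, and no printed sequence held more than 1 match. HDAC2 (chr6:113971149-113971398, minus strand) and HDAC3 (chr5:141636850-141637099, minus strand) are shown because their P values were the lowest of the 10 genes. SIN3A (chr15:75451691-75451940, minus strand) is the only one of the 9 genes with a window that had a match. SINHCAF (chr12:31326151-31326400, minus strand), a SIN3 complex subunit, and DNTTIP1 (chr20:45791704-45791953, plus strand), a scaffold of the mitotic deacetylase complex, are the partner genes called lower that had one.
HDAC2: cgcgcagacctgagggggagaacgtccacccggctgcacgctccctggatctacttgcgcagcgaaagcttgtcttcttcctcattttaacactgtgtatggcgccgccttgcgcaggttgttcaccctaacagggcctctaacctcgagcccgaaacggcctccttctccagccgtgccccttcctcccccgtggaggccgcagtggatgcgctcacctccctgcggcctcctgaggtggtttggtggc
HDAC3: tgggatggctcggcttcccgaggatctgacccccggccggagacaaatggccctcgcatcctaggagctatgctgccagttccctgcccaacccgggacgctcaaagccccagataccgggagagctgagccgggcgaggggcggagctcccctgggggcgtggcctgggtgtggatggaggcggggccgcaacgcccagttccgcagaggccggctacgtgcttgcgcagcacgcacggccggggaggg
SIN3A: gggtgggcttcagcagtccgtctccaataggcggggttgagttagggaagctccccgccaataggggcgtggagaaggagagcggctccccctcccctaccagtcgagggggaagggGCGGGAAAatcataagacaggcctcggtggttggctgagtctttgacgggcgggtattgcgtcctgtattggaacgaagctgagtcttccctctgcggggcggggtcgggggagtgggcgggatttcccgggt
SINHCAF: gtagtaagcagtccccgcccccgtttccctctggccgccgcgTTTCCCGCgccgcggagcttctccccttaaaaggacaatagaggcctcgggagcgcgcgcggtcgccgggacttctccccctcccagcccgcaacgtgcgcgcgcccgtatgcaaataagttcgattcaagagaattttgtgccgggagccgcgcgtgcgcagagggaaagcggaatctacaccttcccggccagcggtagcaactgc
DNTTIP1: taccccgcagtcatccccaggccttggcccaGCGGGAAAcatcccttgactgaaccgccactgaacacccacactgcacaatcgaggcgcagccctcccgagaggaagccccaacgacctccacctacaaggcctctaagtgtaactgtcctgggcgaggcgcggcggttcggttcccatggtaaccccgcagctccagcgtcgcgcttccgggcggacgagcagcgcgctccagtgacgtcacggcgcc

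The SIN3A match began at position -133 from the start, that of SINHCAF at -208 and that of DNTTIP1 at -219. The search itself covered windows of 300 bases, 250 before to 50 after a start. RefSeq windows were found for 9 of the 10 genes (16 windows in all), and 1 of the 16 held a match; the other SIN3A window had none. HDAC5 had no window in the table used. The windows of SIN3B, HDAC2, HDAC7 and HDAC8 belong to RefSeq starts inside the gene spans given below. The outermost 5′ ends of these genes were therefore not searched. The starts next to the SIN3A and SINHCAF matches also lie inside the gene spans, that of SINHCAF being chr12:31280584-31327058. For SIN3A, the window without a match was the outer one. Over all promoter windows, 1164 of 35116 (3.31%) held one of the words, and over all genes with a window, 1090 of 27305 (3.99%). Among the partner genes described below that had a window, 2 of the 16 called lower held one, 0 of the 3 called higher and 3 of the 47 not called. A match is a stretch of letters and not a measured binding site.

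HDAC1 and HDAC2 are the paired catalytic subunits of the SIN3, NuRD, CoREST and mitotic deacetylase complexes, and they can replace each other in each. HDAC1 (ENSG00000116478, chr1:32292083-32333635 in GRCh38) stood at 84.1, 91.8 and 90.0 CPM in DMSO libraries 1 to 3 and at 82.0, 78.0 and 72.7 CPM in abemaciclib libraries 1 to 3. The groups did not overlap, and the means were 88.6 ± 4.01 and 77.5 ± 4.67 CPM (SD, n = 3 each). Its log2 fold change was -0.19 (SE 0.12, 95% interval -0.45 to 0.06), with an edgeR adjusted P of 0.275. HDAC1 has 2 annotated pseudogenes, which together held 6 counts against 1752 for HDAC1 itself.

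HDAC2 (ENSG00000196591, chr6:113933028-114011308) stood at 94.3, 89.7 and 101 CPM with DMSO and at 80.5, 64.9 and 83.2 CPM with abemaciclib. All abemaciclib libraries were below all DMSO libraries, the second of them furthest. The log2 fold change was -0.32 (SE 0.13, 95% interval -0.58 to -0.06), and the adjusted P of 0.0669 missed the threshold. DESeq2 gave an adjusted P of 0.147. Without abemaciclib replicate 3, HDAC2 passed in edgeR, with a fold change of -0.39 on the log2 scale and an adjusted P of 0.0253. Leaving out single libraries gave adjusted P values from 0.0253 to 0.319, so this call rested on which libraries were used. Over the genes tested, replicate 3 differed most from the other abemaciclib libraries. The chi-square per degree of freedom, a measure of how far the counts of 2 libraries differ, was 6.98 against replicate 1 and 7.41 against replicate 2. Between replicates 1 and 2 it was 3.47. Whether this bore on the results of HDAC2 here and SIN3A below was not tested.

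HDAC3 is the catalytic subunit of the NCoR and SMRT corepressor complexes, which repress genes of nuclear receptors. It had the lowest adjusted P of the 10 genes. HDAC3 (ENSG00000171720, chr5:141620876-141636849) stood at 31.3, 27.3 and 27.3 CPM with DMSO and at 40.5, 36.8 and 40.3 CPM with abemaciclib. The groups did not overlap, with means of 28.6 ± 2.33 and 39.2 ± 2.11 CPM (SD, n = 3 each). The log2 fold change was 0.45 (SE 0.17, 95% interval 0.09 to 0.81), which is 1.37-fold (1.07 to 1.75), and the edgeR adjusted P was 0.0576. DESeq2 put the adjusted P at 0.124, and single libraries left out gave 0.0704 to 0.161, so HDAC3 did not pass in any of these.

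HDAC8, the class I enzyme that works outside these complexes and deacetylates the cohesin subunit SMC3, was also higher in each abemaciclib library, without passing the test. HDAC8 (ENSG00000147099, chrX:72329516-72573101) stood at 23.8, 24.4 and 20.9 CPM with DMSO and at 32.4, 29.9 and 25.7 CPM with abemaciclib. The lowest abemaciclib library was just above the highest DMSO library. Its log2 fold change was 0.35 (SE 0.20, 95% interval -0.06 to 0.75), with an adjusted P of 0.212. Within class I, then, the estimates of HDAC1 and HDAC2 were below 0 and those of HDAC3 and HDAC8 above 0, and all 4 intervals lay within a doubling and a halving.

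**Figure D2:**
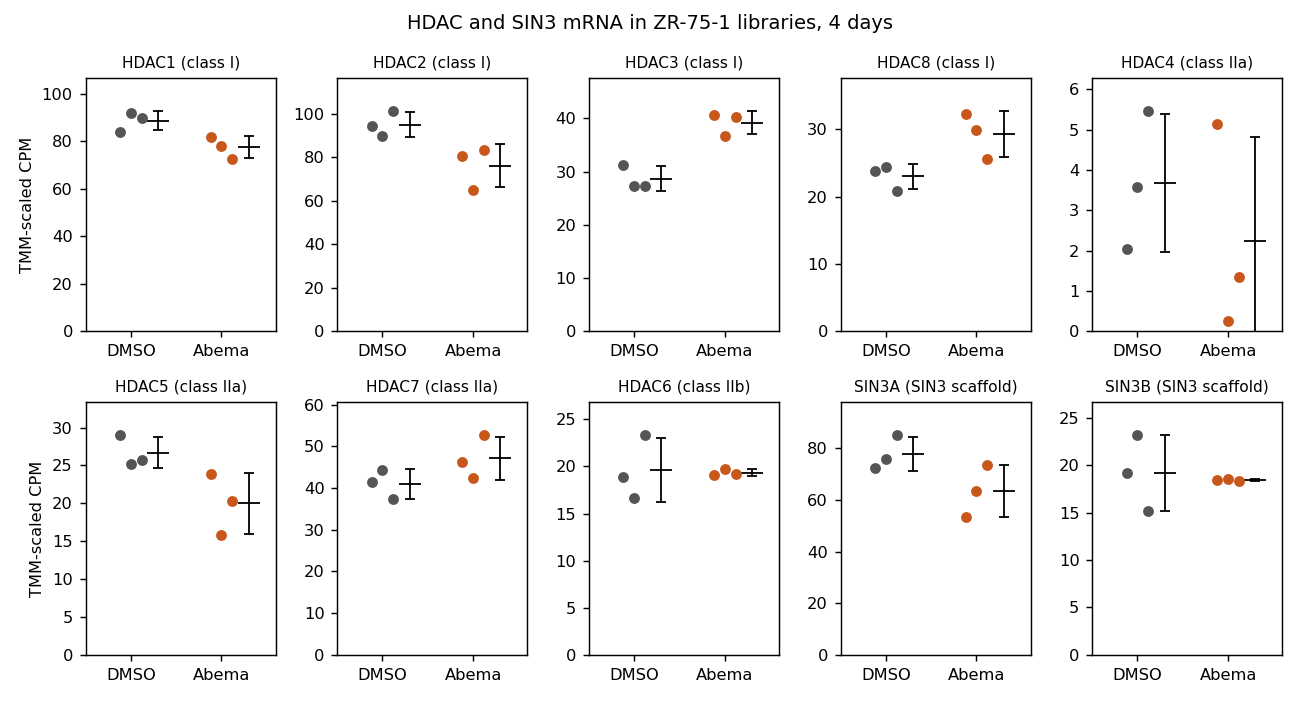
TMM-scaled CPM (vertical axes, each from 0) of the 10 HDAC and SIN3 genes in the 3 DMSO (grey) and 3 abemaciclib (orange) libraries, with the group mean and SD as black bars. HDAC3 and HDAC8 sit higher and HDAC1, HDAC2 and HDAC5 lower in all abemaciclib libraries, and the other 5 genes overlap; the lower SD bar of HDAC4 is cut at 0.

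Of the class IIa genes, HDAC4 was the one measured with little precision. HDAC4, a class IIa enzyme that represses MEF2 targets, was close to the detection limit, with 7, 12 and 18 counts in the DMSO libraries and 17, 1 and 5 in the abemaciclib libraries. HDAC4 (ENSG00000068024, chr2:239048168-239401654) was therefore at 2.03, 3.57 and 5.45 CPM with DMSO and at 5.14, 0.247 and 1.35 CPM with abemaciclib. The groups overlapped widely, and abemaciclib replicate 1 was above all but 1 DMSO library. Its log2 fold change of -0.76 had an SE of 0.66 and a 95% interval from -2.11 to 0.59 (adjusted P = 0.444). At this depth, neither a fall of more than a halving nor a small rise of HDAC4 could be told from no change.

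HDAC5 (ENSG00000108840, chr17:44076746-44123702), its close relative, stood at 29.0, 25.3 and 25.8 CPM with DMSO and at 23.9, 15.8 and 20.3 CPM with abemaciclib. Every abemaciclib library was lower, and the second was the lowest, as for HDAC2. The log2 fold change was -0.42 (SE 0.21, 95% interval -0.86 to 0.01), with an adjusted P of 0.152. Reads at its 3′ end are uncertain, because G6PC3 on the opposite strand overlaps the last 500 bases of HDAC5 and the strand setting of the counting is not given in the sources used here. G6PC3 itself held 1260 counts, against 488 for HDAC5, and its own log2 fold change was 0.23 (adjusted P = 0.336).

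HDAC7, a class IIa enzyme best known from endothelial and lymphoid cells, had its estimate on the other side of 0. HDAC7 (ENSG00000061273, chr12:47782722-47833132) stood at 41.5, 44.3 and 37.3 CPM with DMSO and at 46.3, 42.4 and 52.7 CPM with abemaciclib. One abemaciclib library fell within the DMSO range. The log2 fold change was 0.20 (SE 0.16, 95% interval -0.13 to 0.53, adjusted P = 0.400). SLC48A1 overlaps the last 500 bases of HDAC7 from the opposite strand, with 832 counts against 935 and a difference of 0.37 in log2 (adjusted P = 0.106), and its part in the HDAC7 value was not tested.

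HDAC6, the cytoplasmic tubulin deacetylase of class IIb, gave an estimate nearest to 0. HDAC6 (ENSG00000094631, chrX:48801377-48824982) stood at 18.9, 16.6 and 23.3 CPM with DMSO and at 19.1, 19.7 and 19.2 CPM with abemaciclib. All abemaciclib libraries lay inside the DMSO range. Its log2 fold change was -0.02 (SE 0.22, 95% interval -0.48 to 0.44, adjusted P = 0.965), so that changes beyond about 1.36-fold up or 0.718-fold down were outside the interval. The sign of so small an estimate changed with a single library, to 0.12 without DMSO replicate 3.

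SIN3A is the scaffold of the SIN3 histone deacetylase complex that is needed for the proliferation of many cell types. SIN3A (ENSG00000169375, chr15:75369379-75455842) stood at 72.2, 75.8 and 85.1 CPM with DMSO and at 53.3, 63.4 and 73.5 CPM with abemaciclib. The highest abemaciclib library lay between the DMSO libraries, and the other two lay below them. Means were 77.7 ± 6.66 and 63.4 ± 10.1 CPM (SD, n = 3 each), and the log2 fold change was -0.29 (SE 0.14, 95% interval -0.58 to -0.003). The edgeR adjusted P was 0.134 and that of DESeq2 0.261. Without abemaciclib replicate 3, the highest of its group, SIN3A was called lower, with -0.41 on the log2 scale and an adjusted P of 0.0327. Without abemaciclib replicate 1, the lowest of its group, the estimate shrank to -0.18 (adjusted P = 0.424), so the SIN3A call too rested on which libraries were used. An unnamed gene on the opposite strand at the 3′ end of SIN3A held 31 counts against 1490. Among the sequences above, that of SIN3A holds an E2F-like word, as do those of SINHCAF and DNTTIP1, while the outer SIN3A window held none.

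SIN3B, the paralog that is linked to repression of cell cycle genes in quiescent cells, was level between the groups on average. SIN3B (ENSG00000127511, chr19:16829398-16880353) stood at 19.1, 23.2 and 15.1 CPM with DMSO and at 18.5, 18.5 and 18.4 CPM with abemaciclib. The abemaciclib libraries were nearly equal and lay inside the wider DMSO range. Its log2 fold change was -0.05 (SE 0.23, 95% interval -0.53 to 0.42, adjusted P = 0.898), and it turned to 0.10 without DMSO replicate 2.

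Ratios of paralogs within a library do not depend on the scaling between libraries, and were compared for 5 pairs. The log2 ratio of HDAC5 to HDAC7 was -0.51, -0.81 and -0.53 with DMSO and -0.95, -1.42 and -1.37 with abemaciclib, a mean difference of -0.63. All abemaciclib libraries were below all DMSO libraries in this 1 of 5 ratios. The exact two-sided permutation test gave P = 0.1, the smallest that 3 libraries against 3 allow, and 0.5 after adjustment over the 5 ratios, so no pair could have passed 0.05. As both genes of this pair overlap an opposite-strand gene at the 3′ end, the ratio carries the same uncertainty as the values above.

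For HDAC1 over HDAC2, the difference in the log2 ratio between abemaciclib and DMSO was 0.13 (exact permutation P = 0.7). SIN3A over SIN3B differed by -0.27 (exact permutation P = 0.5), from a mean of 2.03 ± 0.40 with DMSO to 1.76 ± 0.24 with abemaciclib. In both pairs the groups overlapped, and single libraries moved the differences: the first ran from 0.02 without abemaciclib replicate 2 to 0.25 without abemaciclib replicate 3, and the second from -0.43 without DMSO replicate 2 to -0.04 without DMSO replicate 3. The 2 ratios with HDAC4 spread over more than 3 log2 units within the abemaciclib group and gave differences of -0.89 against HDAC5 and -1.52 against HDAC7 (exact permutation P = 0.5 and 0.3). They rested on the abemaciclib libraries kept: without replicate 1 they were -1.69 and -2.47, and without replicate 2, with its single HDAC4 count, -0.07 and -0.62. The difference for HDAC5 over HDAC7 stayed between -0.78 and -0.54 with any 1 library left out.

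**Figure D3:**
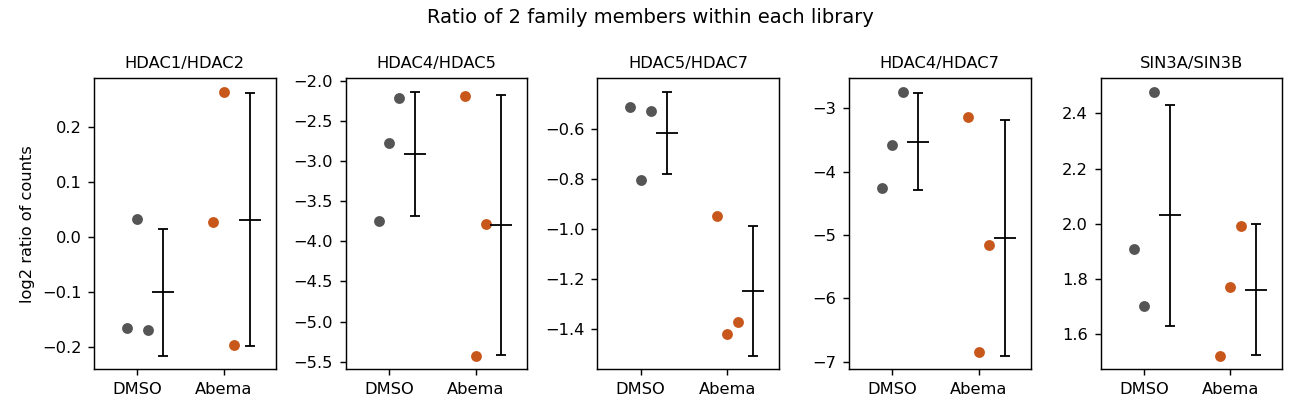
Log2 ratio of the counts of paralogs within each library (vertical axes, each with its own range), for 3 DMSO (grey) and 3 abemaciclib (orange) libraries, with group mean and SD in black. The groups separate for HDAC5 over HDAC7 and overlap for the other 4 ratios.

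The partners of these proteins were followed in 9 lists of 82 genes, of which 73 were tested. Of the 73, 3 were called higher and 17 lower (4.11% and 23.3%), where 12.5% and 13.3% of all genes were called, and their median log2 fold change was -0.10. Neither of the 2 other zinc-dependent deacetylases tested passed in edgeR or DESeq2, with 0 at an unadjusted P under 0.05 in both: HDAC10, a polyamine deacetylase, showed a log2 difference of 0.85 (adjusted P = 0.197) and HDAC11, a class IV enzyme that removes fatty acyl groups, one of 0.36 (adjusted P = 0.511). HDAC9, the class IIa relative of HDAC4, had 1, 2 and 6 counts with DMSO and 1, 0 and 0 with abemaciclib, too few for the test. Sirtuins, the NAD-dependent deacetylases, also gave 0 calls among 6 tested by edgeR and by DESeq2, with 1 gene at an unadjusted P under 0.05 in each. It was SIRT3, a mitochondrial deacetylase named here after its values were seen, at 1.69 ± 0.98 and 4.81 ± 1.16 CPM (SD, n = 3 each, edgeR adjusted P = 0.0508). Without abemaciclib replicate 3, edgeR called SIRT3 higher (adjusted P = 0.0483). At an unadjusted P under 0.05 in edgeR, 17.9% of all genes were higher and 18.3% lower. Both HDAC10 and SIRT3 are uncertain at the 3′ end: MAPK12 overlaps HDAC10 on the same strand, with 195 counts against 102, and RIC8A overlaps SIRT3 on the opposite strand, with 309 counts against 70.

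Of 16 SIN3 complex subunits tested, 4 fell (25%) and none rose, where 13.3% and 12.5% of all genes did. The median of the list was -0.03. SAP30, which bridges SIN3A to HDAC1, fell from 65.3 ± 4.12 to 36.2 ± 10.3 CPM (SD, n = 3 each), a log2 fold change of -0.85 (SE 0.17, adjusted P = 4.66e-04). On the log2 scale SINHCAF, an adaptor of the complex, fell by 0.73 (adjusted P = 0.00431). MORF4L1, a chromodomain subunit of the SIN3B complex and of NuA4, fell by 0.44 (adjusted P = 0.00137), with 6 annotated pseudogenes that held 140 counts against 6540. The histone-binding subunit RBBP7, outside the rule for naming and added after its values were seen, fell by 0.43 (adjusted P = 0.00450), while its paralog RBBP4 was at 0.03 on the same scale (adjusted P = 0.896). Of 10 tested genes listed under NuRD, which also holds HDAC1 and HDAC2, 1 rose and 1 fell. For this list the shares were no higher than the 12.5% and 13.3% of all genes. RBBP4 and RBBP7, which NuRD shares with the SIN3 complex, were counted in the SIN3 list only. Of 9 CoREST subunits none passed in edgeR or DESeq2, with 2 and 1 at an unadjusted P under 0.05. In edgeR, 1 of the 2 was higher and 1 lower, where 17.9% of all genes were higher and 18.3% lower at that P. The methyl-CpG-binding NuRD subunit MBD2 had a log2 fold change of -0.60, with adjusted P = 1.78e-04. MTA1, a NuRD scaffold, rose by 0.27 at an adjusted P of 0.0498, which 8 of 12 alternatives did not keep.

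Of the 3 subunits of MiDAC, the mitotic deacetylase complex with HDAC1 or HDAC2, 2 fell. Over all genes tested, 13.3% were called lower. DNTTIP1, whose promoter is printed above, went from 42.3 ± 6.95 to 22.1 ± 1.56 CPM (SD, n = 3 each), a log2 fold change of -0.94 (SE 0.19, adjusted P = 3.65e-04). TRERF1, a DNA-binding relative of the MIDEAS subunit, fell by 2.32 (SE 0.59, adjusted P = 0.00416), and had an adjusted P of 0.0555 without DMSO replicate 1. The levels of TRERF1 were low, at 5.99 ± 2.69 CPM with DMSO and 1.17 ± 0.86 CPM with abemaciclib. DMSO libraries 1 to 3 held 30, 20 and 11 counts of it. Abemaciclib libraries 1 to 3 held 2, 3 and 8, close to the limit of 3 counts. Around HDAC3, 2 of 4 NCoR and SMRT subunits fell: TBL1X, a WD40 protein that exchanges corepressors, from 169 ± 16.4 to 95.8 ± 5.72 CPM (log2 fold change -0.82, adjusted P = 2.11e-06), and its paralog TBL1XR1 by -0.64 in log2 (adjusted P = 9.83e-05). The estimate of HDAC3 was above 0 and those of all 4 tested partners below 0.

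**Figure D4:**
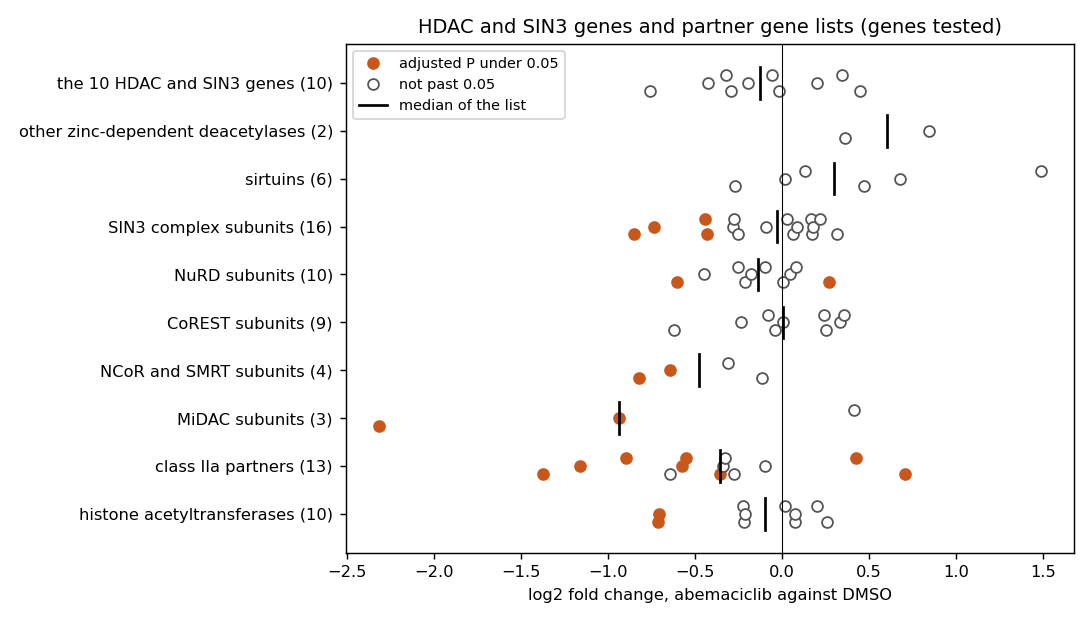
Log2 fold change with abemaciclib against DMSO (horizontal axis) of the 10 HDAC and SIN3 genes and of their partner lists (rows, with the number of genes tested), filled where the edgeR adjusted P was under 0.05, with the median of each list as a black line. No filled point lies among the 10 genes, and 17 of the 20 filled partners lie below 0.

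Partners of class IIa enzymes were 14-3-3 proteins, the kinases that phosphorylate these enzymes and MEF2 factors. Of the 13 tested, 2 rose and 6 fell (15.4% and 46.2%), where 12.5% and 13.3% of all genes did. The list median was -0.36. SFN, the epithelial 14-3-3 protein 14-3-3σ, fell from 266 ± 21.0 to 103 ± 13.6 CPM (SD, n = 3 each), a log2 fold change of -1.37 (SE 0.11, adjusted P = 1.42e-10), and YWHAH, 14-3-3η, had one of -0.90 (adjusted P = 7.09e-05). In log2 terms YWHAG, 14-3-3γ, rose by 0.43 (adjusted P = 0.00515). Of the protein kinases D, which phosphorylate class IIa enzymes, PRKD3 fell by 1.16 (adjusted P = 0.00558) and PRKD2 rose by 0.71 (adjusted P = 0.0172). The rise of PRKD2 was lost when any 1 of 3 libraries was left out, DMSO replicates 1 and 3 or abemaciclib replicate 1 (adjusted P from 0.0732 to 0.135). Without abemaciclib replicate 1, 3 rather than 6 of these partners were called lower.

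The histone acetyltransferases, which add the groups that HDACs remove, gave 2 falls and no rise among 10 tested, with a median of -0.10. The falls were 20% of this list, against 13.3% of all genes tested. KAT5, the catalytic subunit of NuA4, fell by 0.71 on the log2 scale (SE 0.13, adjusted P = 1.76e-04), though RNASEH2C, with 1505 counts and a log2 fold change of 0.05, overlaps its 3′ end from the opposite strand. KAT8, which acetylates lysine 16 of histone H4, fell by 0.71 (adjusted P = 0.0357), and did not pass in DESeq2 (adjusted P = 0.103) or when any 1 of 4 libraries was left out, replicates 1 and 2 of DMSO and 2 and 3 of abemaciclib (0.0672 to 0.171).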

How the data were processed

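Counts were taken from 3 DMSO and 3 abemaciclib libraries, described by the study as independent replicates and grouped by their labels. The authors trimmed single-end 3′ mRNA reads with BBDuk, aligned them with STAR 2.7.5b to hg38 and counted reads per gene with featureCounts 2.0.1 on GENCODE 35, and deposited the raw counts; no molecular identifiers are described. Labels and methods differ on the read direction of the kit.

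Symbols, positions and overlaps at the last 500 bases came from GENCODE 44 on the same assembly (60401 of 60656 identifiers had a symbol). Analysis used R 4.3.3 with edgeR 4.0.16 (filterByExpr, TMM, glmQLFit, glmQLFTest) with treatment as the only term, and P values adjusted by Benjamini–Hochberg over the 10863 genes tested. The biological coefficient of variation was 13.2%. An SE is the fold change divided by the root of its F statistic. Ratios used counts plus 0.5. The method was checked on counts simulated with the spread fitted to these data, with known changes of at least a doubling or a halving. Smaller changes were not simulated.

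All 10 genes were named, with HDAC9, HDAC10, HDAC11, RB1, KDM5A and MKI67, and from each partner list up to 3 rises and 3 falls, by size, past the threshold. Members and lists were chosen with earlier results of these data known. Alternatives were DESeq2 1.42.0, its size factors, total counts, 2 other count filters, a replicate block and each library left out.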

Additional observations from a re-analysis of the deposited data

How the results depend on the processing

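Of the 10 HDAC and SIN3 genes, 0 were called higher in each of 12 alternatives, and 0 lower in all except 1: leaving out single libraries gave 0 to 2 called lower, the 2 being HDAC2 (log2 fold change -0.39) and SIN3A (-0.41) without abemaciclib replicate 3. Estimates turned sign for HDAC6 (0.12 without DMSO replicate 3, in a range of -0.13 to 0.12) and SIN3B (0.10 without DMSO replicate 2, in a range of -0.20 to 0.10), with no adjusted P under 0.632. HDAC4 had too few counts for the filter of 10 in every library, and ran from -2.18 to -0.20 with single libraries left out. Partner genes called higher numbered 1 to 4 and those called lower 13 to 18 with single libraries left out, against 3 and 17. With the replicate block, 0 of the 10 genes were called in either direction and 16 partner genes were lower. Libraries of the same number did not deviate together (correlations of -0.049, 0.007 and -0.096), so the numbers were not taken as pairs. Depth left 9 of the 82 partner genes untested. Of all genes called in either direction, 45.7% were higher with total counts as the only scaling, against 48.4% with TMM.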
